A study of Mus musculus with 10 samples.

Results

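The TRBJ1 cluster is the upstream group of joining (J) segments of the mouse T cell receptor β locus. Its members were the 6 segments TRBJ1-1 to TRBJ1-6, taken as every clonotype that the deposited tables listed with 1 of these J segments. They made up 6 of the 12 TRBJ segments listed and 8830 of 29481 clonotypes in 9 libraries, the other 20651 clonotypes being joined to TRBJ2. Each clonotype is a distinct combination of V, J and CDR3 nucleotides with its read count, CDR3 (complementarity-determining region 3) being the loop encoded across the V-D-J junction.

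T cell receptor β transcripts were amplified by 5′ RACE from sorted cells of mouse ear skin and peripheral lymph node, each library being 1 pool of cells from 5 to 18 animals. Cells came from Tcrd-/- mice (B6.129P2-Tcrdtm1Mom/J), which carry a targeted mutation of the δ chain gene and lack γδ T cells, or from WT mice (C57BL/6-N/Crl). Lymph node, WT dermis and the bulk Tcrd-/- dermal libraries A and B were sorted as CD45+ CD3+ TCRβ+ cells. The CD103+ and CD103hi dermal libraries were gated in addition on CD103, an integrin chain found on many T cells of epithelia, and the 3 epidermal libraries (A to C) of Tcrd-/- mice were sorted as CD3hi TCRβhi cells. All groups other than WT dermis share the Tcrd mutation, no age was given in the labels used here, and the replicated contrast is epidermal Tcrd-/- (n = 3) against bulk dermal Tcrd-/- (n = 2). The tables hold receptor transcripts only, so the sorted cells could not be checked against other marker genes.

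During β chain rearrangement in the thymus a D segment is first joined to a J segment, and a V segment is then joined to the DJ product. TRBD1 lies upstream of both J clusters and can join either by deletion, while TRBD2 lies between them and can join only TRBJ2 that way. At each join, exonuclease activity trims the ends of the segments, opened hairpins leave short palindromic (P) bases, and terminal deoxynucleotidyl transferase adds untemplated (N) bases, so that the J segment sets the last part of CDR3 and the trimming and additions set its length.

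The segments lie on the plus strand of chromosome 6 (GRCm38), each a short exon followed by a splice site that joins it to a constant region gene. TRBJ1-1 is at chr6:41533864-41533911, TRBJ1-2 at chr6:41534001-41534048, TRBJ1-3 at chr6:41534323-41534372, TRBJ1-4 at chr6:41534811-41534861, TRBJ1-5 at chr6:41535084-41535133 and TRBJ1-6 at chr6:41535554-41535606. TRBD1 ends 651 bases before TRBJ1-1 and 2341 bases before TRBJ1-6. The germline sequences, from the GENCODE M21 transcripts, are shown because trimming is measured against them, and the capitals mark the bases that belong to CDR3 in the deposited clonotypes.
TRBJ1-1: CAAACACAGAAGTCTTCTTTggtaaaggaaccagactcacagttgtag
TRBJ1-2: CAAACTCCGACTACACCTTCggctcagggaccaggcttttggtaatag
TRBJ1-3: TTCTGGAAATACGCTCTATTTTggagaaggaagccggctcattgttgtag
TRBJ1-4: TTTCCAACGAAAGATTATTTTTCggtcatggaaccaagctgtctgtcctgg
TRBJ1-5: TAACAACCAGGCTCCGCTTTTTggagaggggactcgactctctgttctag
TRBJ1-6: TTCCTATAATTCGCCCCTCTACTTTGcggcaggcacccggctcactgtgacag

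The CDR3 part was 20 bases in TRBJ1-1 and TRBJ1-2, 22 in TRBJ1-3 and TRBJ1-5, 23 in TRBJ1-4 and 26 in TRBJ1-6. TRBJ1-1 and TRBJ1-2 begin with the same 5 letters.

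In all 11 other TRBJ segments, 28 bases followed the CDR3 end at which most clonotypes stopped, and in TRBJ1-6 it was 27. The number of J bases after a CDR3 of whole codons sets the frame in which the constant region is read. The TRBJ1-6 clonotypes were therefore, as listed, 1 base out of the frame shared by the other segments. TRBJ1-6 chains that keep that frame with no base missing are not counted by these tables. TRBJ1-6 was listed for 23 clonotypes in all, 16 of them in lymph node. In 20 of the 23 the listed CDR3 ran 1 base past the phenylalanine codon and ended in the residues PSTL, and in the other 3 a T before the last base was missing. These 3 ended in PLYL or PLCL, read in the frame of the phenylalanine codon up to the missing T. Whether the chains themselves lack the T was not tested. The most abundant, in CD103hi dermis, had 148 reads (0.465% of the library) and is printed with its J bases in capitals.
CASSTGAIRPSTL: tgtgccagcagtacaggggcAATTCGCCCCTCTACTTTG
WT dermis, dermal A, dermal B and epidermal C had no TRBJ1-6 clonotype, which allows clonotype shares of up to 0.427%, 1.28%, 3.90% and 4.17%. Values of TRBJ1-6 are given below only as listed.

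The libraries held 31823 to 189162 reads, with 52498 in lymph node. Lymph node differed from skin in its number of clonotypes, 26693 against 72 to 702. TRBJ1 clonotypes numbered 8061 in lymph node and 203 in WT dermis. There were 63 in dermal A, 17 in dermal B, 160 in CD103+ dermis and 137 in CD103hi dermis. The epidermal libraries had 77, 91 and 21, so that shares in dermal B and epidermal C rest on few clonotypes. A single read supported 31.0 to 50.8% of the TRBJ1 clonotypes of a library. No molecular identifiers are named in the labels, so PCR reads need not be separate molecules and the 95% Wilson intervals below cover counting error only.

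The library names put lymph node, dermal A and epidermal A in 1 set, the CD103 sorts and epidermal B in another, and WT dermis, dermal B and epidermal C in the last. TRBJ1 clonotypes with the same V, J and amino acid CDR3 were shared by a median of 7 (2 to 16) between skin libraries of 1 set (7 pairs) and by a median of 0 (0 to 3) between skin libraries of different sets (21 pairs). Of the 20 amino acid TRBJ1 clonotypes of epidermal C, 10 were also in WT dermis, a library of another genotype, with a median of 1 read in epidermal C and 648.5 in WT dermis. Of the 16 that CD103+ dermis shared with epidermal B, 15 had under 1% of the share they had in the other library. How these low-level copies arose was not tested. They are called trace clonotypes below, and epidermal minus dermal differences that they move most are given with and without them.

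TRBJ1 took between 20.9 and 32.5% of the clonotypes of a library. It made up 30.2% (29.7 to 30.8%) of lymph node clonotypes and 28.9% (25.7 to 32.4%) of WT dermal clonotypes. It made up 26.8% of dermal A, 22.1% of dermal B, 32.5% of CD103+ dermis and 30.0% of CD103hi dermis. The epidermal libraries had 24.2%, 20.9% and 29.2%. The intervals of epidermal A (19.8 to 29.2%) and epidermal B (17.4 to 25.0%) lay wholly below that of lymph node, and no skin interval lay wholly above it. The interval of epidermal B also lay below those of WT dermis, CD103+ dermis (28.5 to 36.8%) and CD103hi dermis (26.0 to 34.3%). By reads the share ran from 19.4% in epidermal A to 34.9% in CD103+ dermis, with 30.5% in lymph node. Epidermal minus dermal shares of clonotypes differed by 0.323 percentage points (exact permutation p = 1.0), and by -0.829 without trace clonotypes. Within library sets, epidermal A was 2.59 points below dermal A (24.2 against 26.8%) and epidermal C 7.09 points above dermal B (29.2 against 22.1%).

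In lymph node, where intervals are narrow, TRBJ1-1 led and TRBJ1-5 was lowest of the 5 members that can be compared. TRBJ1-1 took 11.2% (10.8 to 11.6%) of clonotypes, and TRBJ1-4 5.83% (5.55 to 6.11%). TRBJ1-2 followed with 5.63% (5.36 to 5.92%), TRBJ1-3 with 5.01% (4.75 to 5.28%) and TRBJ1-5 with 2.46% (2.28 to 2.65%). The intervals of TRBJ1-4 and TRBJ1-2 overlapped, as neighbours in this order, while the others did not. TRBJ1-6 was listed at 0.0599%. The level did not fall steadily with distance from TRBD1, since TRBJ1-4 was above TRBJ1-3.

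**Figure D1:**
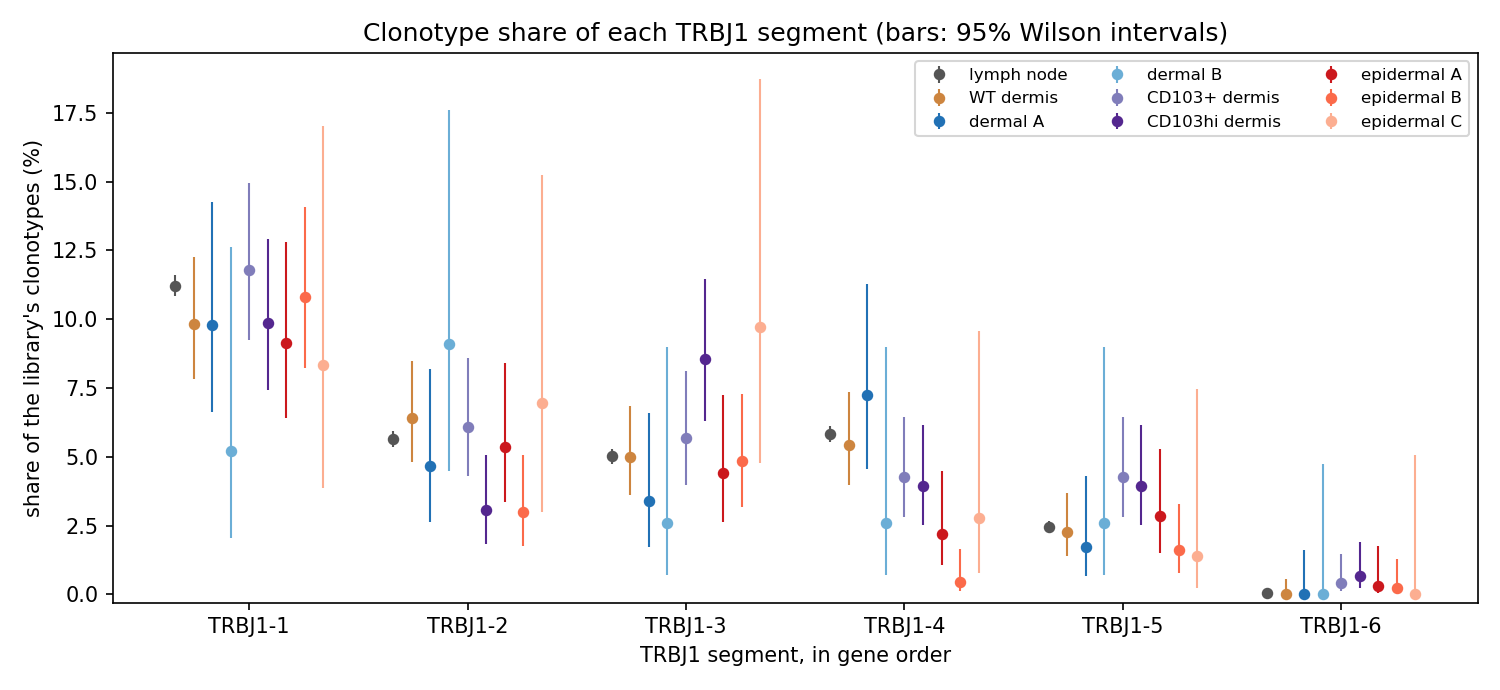
Share of each library's clonotypes (y axis, percent) joined to each TRBJ1 segment (x axis, in gene order), 1 point a library with its 95% Wilson interval. TRBJ1-1 is highest in 7 of the 9 libraries, and the wide bars belong to dermal B and epidermal C with 77 and 72 clonotypes.

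TRBJ1-1 ranged from 5.19% of clonotypes in dermal B to 11.8% in CD103+ dermis over the 8 skin libraries, with a median of 9.81%. It was exceeded by TRBJ1-2 in dermal B (9.09% against 5.19%) and by TRBJ1-3 in epidermal C (9.72% against 8.33%), in both cases by at most 3 clonotypes and with overlapping intervals. TRBJ1-2 ranged from 2.99% in epidermal B to that 9.09%, and CD103hi dermis was low as well with 3.06% (1.83 to 5.08%), below the lymph node interval. TRBJ1-3 took 8.53% (6.31 to 11.4%) of CD103hi clonotypes, above the lymph node interval, against 5.69% (3.97 to 8.10%) in CD103+ dermis. TRBJ1-5 ranged from 1.39% in epidermal C to 4.27% in CD103+ dermis. With 1 library per sort these are descriptions of the libraries.

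TRBJ1-4 was lowest of TRBJ1-1 to TRBJ1-5 in epidermal A and B, while TRBJ1-5 was lower in epidermal C (1 clonotype). TRBJ1-4 took 2.20%, 0.460% and 2.78% of clonotypes in epidermal A, B and C (7, 2 and 2 clonotypes), against 7.23% in dermal A and 2.60% in dermal B (17 and 2 clonotypes). The CD103+ and CD103hi dermal libraries had 4.27% and 3.94%, WT dermis 5.41%. Epidermal C and dermal B overlapped, and the gap was between epidermal A and B on 1 side and dermal A on the other. In edgeR's quasi-likelihood test of all 11 TRBJ segments with enough clonotypes, TRBJ1-4 had a log2 fold change of -1.98 (SE 0.676) and a Benjamini-Hochberg adjusted p of 0.0673, above the 0.05 threshold. None of the 5 tested members was called, with 1 at an unadjusted p under 0.05, against 2 of all 11 segments. DESeq2 called none, and the share called over all TRBJ segments was 0%. The adjusted p fell to 0.0361 with TMM factors, 0.00633 with the newer edgeR fit, 0.0231 without trace clonotypes and 0.0323 with the CD103 sorts added to dermis. The log2 fold change was -0.85 without dermal A (adjusted p 0.700) and -1.27 without epidermal B (adjusted p 0.772). With the library set as a block it was -1.40 (adjusted p 0.859). Epidermal B has no bulk dermal library in its set.

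TRBJ1-3 was the only member whose clonotype shares did not overlap between epidermis (4.40, 4.83 and 9.72%) and dermis (3.40 and 2.60%). Over all tested TRBJ segments 18.2% did not overlap. The edgeR log2 fold change was 0.77 (SE 0.734), with an adjusted p of 0.957. TRBJ1-1, TRBJ1-2 and TRBJ1-5 had log2 fold changes of 0.24, -0.44 and 0.08, with adjusted p values of 0.957, 0.957 and 0.964. Without trace clonotypes those of TRBJ1-2 and TRBJ1-5 were -0.70 and 0.022. The median log2 fold change of the 5 tested members was 0.08, against 0.09 over all 11 segments.

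By reads, the largest clonotype held over 50% of a member's reads in 19 of the 40 pairs of a skin library and a member (TRBJ1-1 to TRBJ1-5). These were all 5 members in epidermal A and in epidermal C, 4 in dermal B, 2 in epidermal B and 1 each in dermal A, CD103+ dermis and CD103hi dermis. With only 1 or 2 clonotypes, the largest holds at least 50% whatever the reads. That was so for TRBJ1-3, TRBJ1-4 and TRBJ1-5 in dermal B, TRBJ1-4 in epidermal B, and TRBJ1-4 and TRBJ1-5 in epidermal C. In epidermal C, TRBJ1-5 had 1 read and TRBJ1-2 had 10. In WT dermis, where no member passed 50%, the largest clonotype held 17.1 to 28.5%. In pooled cells, more cells of a clonotype and more transcripts per cell cannot be told apart in its reads. TRBJ1-1 took 22.4% of epidermal C reads, of which 97.3% belonged to 1 clonotype, and 3.93% of epidermal A reads. In dermal B the largest clonotype held 66.3% of TRBJ1-1 reads and 99.2, 99.9 and 99.9% of the reads of TRBJ1-3, TRBJ1-4 and TRBJ1-5. In lymph node no clonotype held more than 0.705% of the reads of TRBJ1-1 to TRBJ1-5. TRBJ1-4 took 13.1% of CD103hi reads, 53.9% of them in its largest clonotype, but only 3.94% of CD103hi clonotypes.

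**Figure D2:**
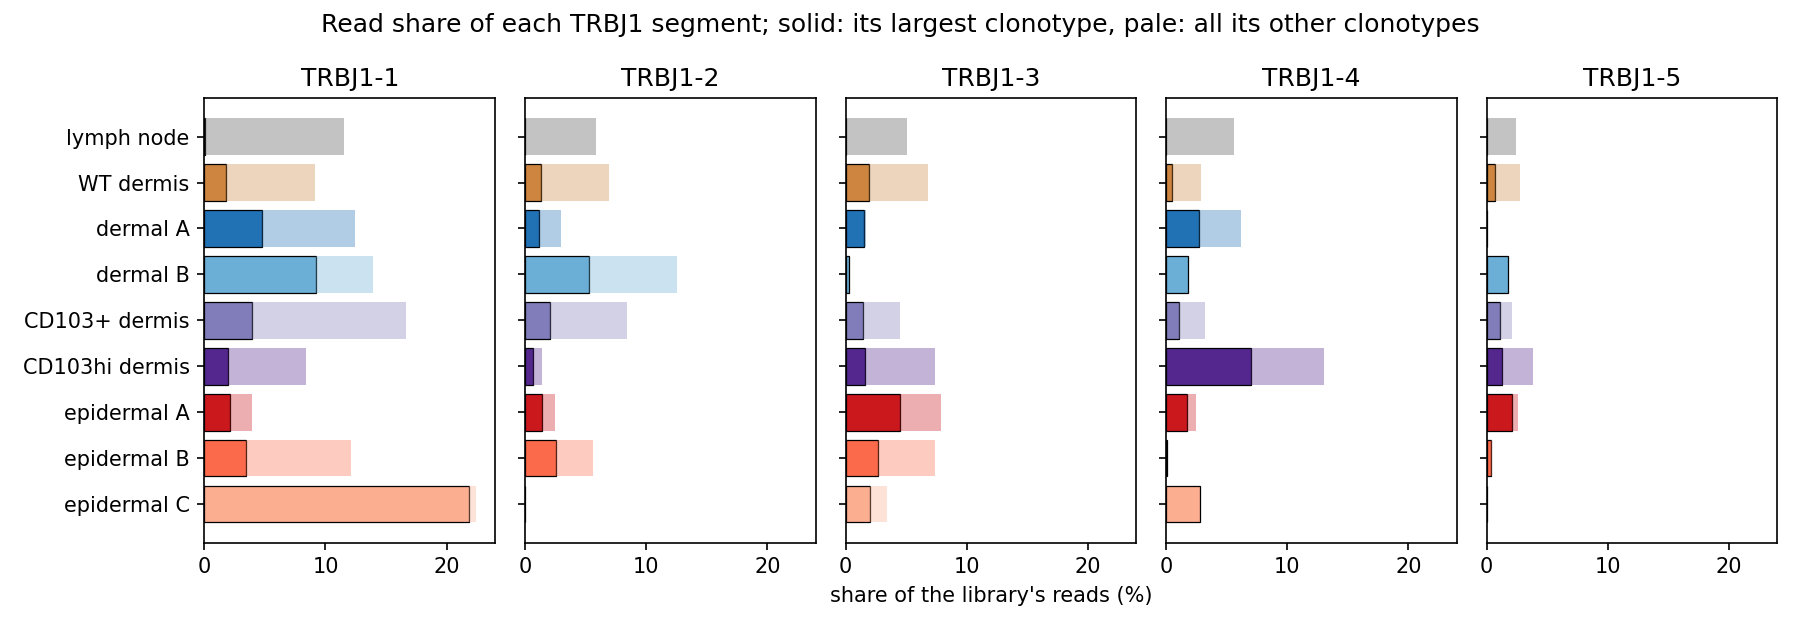
Share of each library's reads (x axes, percent) taken by TRBJ1-1 to TRBJ1-5, 1 panel a segment and 1 bar a library. The solid part is the largest clonotype of the segment and the pale part all its other clonotypes: in epidermal C nearly all of the 22.4% of TRBJ1-1 is solid, while the lymph node bars have almost no solid part.

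In the read-based edgeR test 0 of 12 TRBJ segments passed (0%), none with an unadjusted p under 0.05, and DESeq2 called none. TRBJ1-3 took 7.87, 7.34 and 3.40% of epidermal reads against 1.71 and 0.286% of dermal reads, without overlap, where 25.0% of the segments did not overlap. Its log2 fold change was 2.64 with an SE of 1.97 (adjusted p 0.826). TRBJ1-6 passed only without epidermal C (adjusted p 0.0126). That call rests on 1 clonotype each in epidermal A and epidermal B (56 and 33 reads) and none in dermis. The epidermal A clonotype ends in PSTL and that of epidermal B lacks the T, as described above.

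The largest TRBJ1 clonotype of each library and of each segment in skin are printed next, because they carry the read levels of the members. Capitals mark the bases that the deposited positions assign to J.
Lymph node, TRBJ1-1, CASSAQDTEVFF: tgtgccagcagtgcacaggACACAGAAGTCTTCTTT
WT dermis, TRBJ1-3, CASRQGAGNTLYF: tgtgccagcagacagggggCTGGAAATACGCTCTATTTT
Dermal A, TRBJ1-1, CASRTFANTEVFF: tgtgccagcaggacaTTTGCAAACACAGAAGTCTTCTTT
Dermal B, TRBJ1-1, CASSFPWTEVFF: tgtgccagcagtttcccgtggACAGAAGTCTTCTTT
Dermal B, TRBJ1-2, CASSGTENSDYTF: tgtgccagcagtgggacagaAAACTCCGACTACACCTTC
CD103+ dermis, TRBJ1-1, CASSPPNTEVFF: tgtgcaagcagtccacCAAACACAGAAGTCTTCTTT
CD103hi dermis, TRBJ1-4, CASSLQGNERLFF: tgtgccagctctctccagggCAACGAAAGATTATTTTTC
Epidermal A, TRBJ1-3, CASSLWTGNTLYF: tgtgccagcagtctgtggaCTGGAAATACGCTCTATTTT
Epidermal A, TRBJ1-5, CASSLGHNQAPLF: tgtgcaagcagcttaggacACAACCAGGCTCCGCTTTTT
Epidermal B, TRBJ1-1, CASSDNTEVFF: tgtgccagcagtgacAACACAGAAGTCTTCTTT
Epidermal C, TRBJ1-1, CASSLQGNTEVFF: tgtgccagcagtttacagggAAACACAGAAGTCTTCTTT

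The lymph node clonotype (TRBV13-1) had 26 reads, 0.0495% of the library. The WT dermal clonotype (TRBV13-3) held 1.94% of reads, and 1 read of it was also listed in epidermal C. In dermal A the leading clonotype (TRBV13-3) held 4.73% of reads and kept the whole J segment preceded by 4 further bases that the positions also assign to J. The leading clonotype of dermal B (TRBV14) held 9.20% of reads with 5 J bases trimmed. Its TRBJ1-2 clonotype (TRBV13-3) held 5.31% of reads. CD103+ dermis was led among TRBJ1 clonotypes by a TRBV16 chain at 3.91%, with no J base trimmed. The CD103hi clonotype (TRBV12-2, 7.04%) was the largest of its library and lacked 4 J bases. The epidermal A clonotypes (TRBV26 and TRBV16) held 4.53 and 2.11% of reads, and that of epidermal B (TRBV13-3) 3.40%. The epidermal C clonotype (TRBV15) took 76.1% of the TRBJ1 reads of its library and lacked 1 J base. The CD103hi and the epidermal C leaders both read CASSLQGN before the J residues diverge, from different V and J segments. The N lies in the J bases of both. This likeness was picked after the sequences were seen and was not tested.

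Trimming of the J end differed between the members within lymph node, the library with enough clonotypes to show it. Bases trimmed were the germline CDR3 bases upstream of the deposited J start. No base was trimmed from 56.8% (54.1 to 59.4%) of TRBJ1-3 clonotypes and from 40.4% (38.0 to 42.9%) of TRBJ1-2 clonotypes. The share was 28.8% (26.6 to 31.1%) for TRBJ1-4, 27.9% (26.4 to 29.6%) for TRBJ1-1 and 25.3% (22.1 to 28.7%) for TRBJ1-5. Means were 1.30 bases for TRBJ1-3, 1.61 for TRBJ1-2, 2.69 for TRBJ1-1, 2.90 for TRBJ1-4 and 2.93 for TRBJ1-5. When the J part was instead read as the stretch identical to the germline, untrimmed shares were 51.3, 36.2, 22.7, 24.6 and 22.8% in that order of segments, with TRBJ1-3 and TRBJ1-2 again highest. TRBJ1-1 and TRBJ1-2, which begin with the same bases, thus differed in this share.

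**Figure D3:**
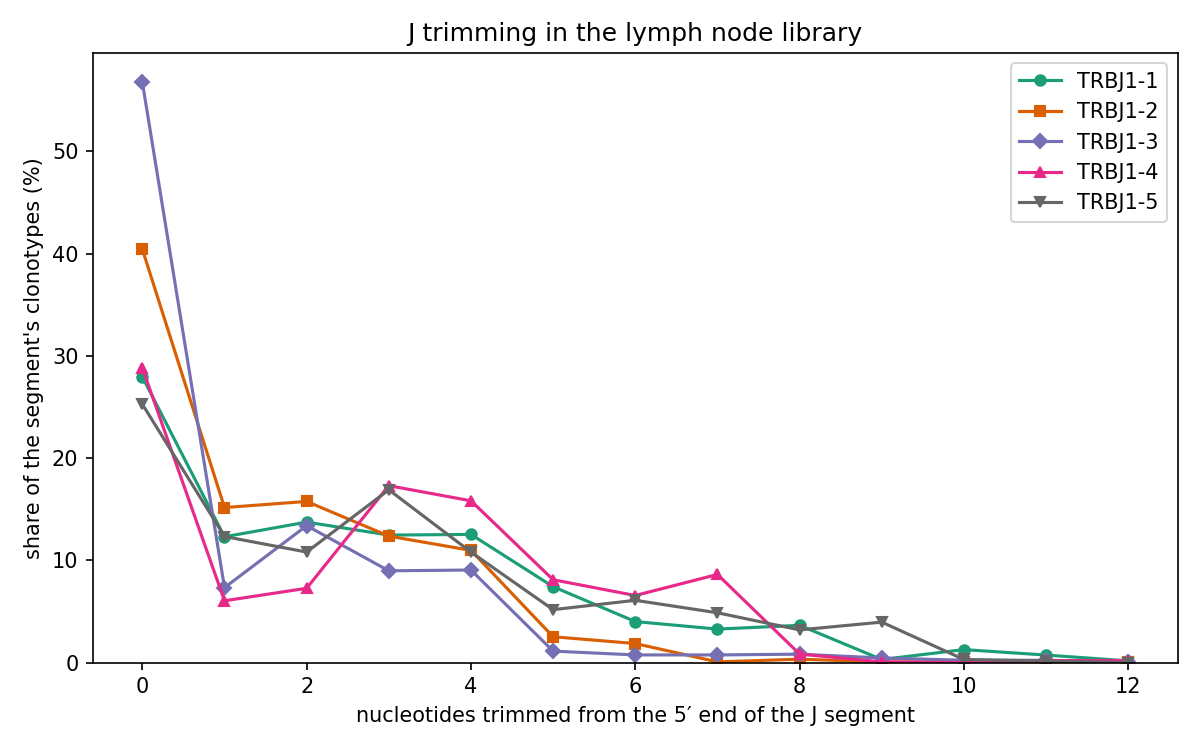
Share of a segment's lymph node clonotypes (y axis, percent) against the number of bases trimmed from the 5′ end of the J segment (x axis), for TRBJ1-1 to TRBJ1-5. TRBJ1-3 (56.8%) and TRBJ1-2 (40.4%) stand highest at 0 bases, and TRBJ1-4 has a further rise at 3 bases (17.3%) and at 7 bases (8.62%).

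The trimming profiles were not all smooth. TRBJ1-4 had 17.3% of its lymph node clonotypes at 3 trimmed bases and 8.62% at 7, against 6.05% at 1 base, and TRBJ1-5 had 16.9% at 3 bases. TRBJ1-3 fell to 7.33% at 1 base and had 13.4% at 2. In skin the members had few clonotypes, and the same order was not seen in each library. Of TRBJ1-1 to TRBJ1-5, TRBJ1-3 had the lowest mean trimming in WT dermis (1.17 bases), CD103+ dermis (1.21) and epidermal B (1.81). It was also lowest in dermal A (1.63) and dermal B (0), from 8 and 2 clonotypes. In CD103hi dermis TRBJ1-3 had 2.23, against 1.29 for TRBJ1-2. In epidermal A it had 2.57, against 1.86 for TRBJ1-4 (7 clonotypes). In epidermal C it had 2.43, against 0.833 for TRBJ1-1 (6 clonotypes).

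The deposited J start often lay upstream of the germline coding start. This held for 18.8% of TRBJ1-1, 23.8% of TRBJ1-2, 30.9% of TRBJ1-3, 15.1% of TRBJ1-4 and 17.6% of TRBJ1-5 clonotypes. Of the 1595 TRBJ1 clonotypes with 1 to 3 such bases, 1529 (95.9%) had bases that are the reverse complement of the first bases of the segment, as P bases are. Clonotypes with more than 3 such bases are outside that count. Of the clonotypes with an upstream J start, 598 of 616 had 1 to 3 bases in TRBJ1-1, but 330 of 460 in TRBJ1-3 and 169 of 251 in TRBJ1-4. All clonotypes with an upstream J start count here as having 0 J bases trimmed. The upstream processing was not given in the sources used here, so whether the J start was placed by this palindrome is not known here. A measure that does not use the deposited positions is the base next to an untrimmed J in lymph node. It was G in 65.1% of TRBJ1-1 and 59.4% of TRBJ1-2 clonotypes, whose first base is C. It was A in 50.0% of TRBJ1-3, 44.1% of TRBJ1-4 and 68.7% of TRBJ1-5 clonotypes, whose first base is T.

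On average, TRBJ1 clonotypes lost fewer J bases than TRBJ2 clonotypes of the same library in 8 of 9 libraries. Mean J trimming was 2.33 bases for TRBJ1 and 2.92 for TRBJ2 in lymph node, and 2.47 and 2.97 in WT dermis. It was 3.25 and 3.11 in dermal A, the only library in which TRBJ1 was higher, and 2.24 and 2.57 in dermal B. The CD103+ library had 2.78 and 2.88, and the CD103hi library 2.55 and 3.19. The epidermal libraries had 3.05 and 3.53 (A), 2.82 and 3.14 (B), and 1.90 and 4.06 (C). The mean difference was -0.551 bases (SD 0.650, n = 9, lower in 8 of 9 libraries), with an exact two-sided sign-flip permutation p of 0.0117 and an adjusted p of 0.0293 over 5 measures. Leaving out 1 library put the adjusted p at 0.0586, above the 0.05 threshold, in 7 of 9 fits, while without dermal A it was 0.0195 and without CD103+ dermis 0.0391. It gave differences from -0.638 to -0.350 bases, the smallest without epidermal C. With the J part read from the germline match the difference was -0.352 bases (adjusted permutation p 0.395), so the call depends on how the J start is placed. Single segments of the 2 clusters interleaved in lymph node. TRBJ2-3 (1.43 bases), TRBJ2-2 (2.20) and TRBJ2-4 (2.36) were trimmed less than TRBJ1-1, TRBJ1-4 and TRBJ1-5. TRBJ2-5, TRBJ2-1 and TRBJ2-7 had means of 3.01, 3.37 and 3.81 bases. How far the mix of segments sets the difference between clusters was not tested.

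By the deposited positions, more CDR3 bases were assigned to J in TRBJ1 than in TRBJ2 clonotypes. The means over libraries were 18.7 ± 0.406 and 18.1 ± 0.577 bases (SD, n = 9), a difference of 0.676 in the same direction in 9 of 9 libraries. The exact sign-flip permutation p was 0.0039, the smallest this design allows, and the adjusted p 0.0195. It was 0.188 with the germline match and 0.156 with at least 10 reads. This measure includes the germline lengths, which run from 19 bases in TRBJ2-7 to 26 in TRBJ1-6. It also counts the bases before the germline coding start that the deposited positions assign to J, which the germline match leaves out. Mean CDR3 length differed by -0.244 residues (13.3 against 13.6, exact permutation p = 0.176, adjusted p 0.293). Inserted bases differed by 0.268 (adjusted permutation p 0.444) and the share of clonotypes with no inserted base by -0.762 points (adjusted permutation p 0.855).

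**Figure D4:**
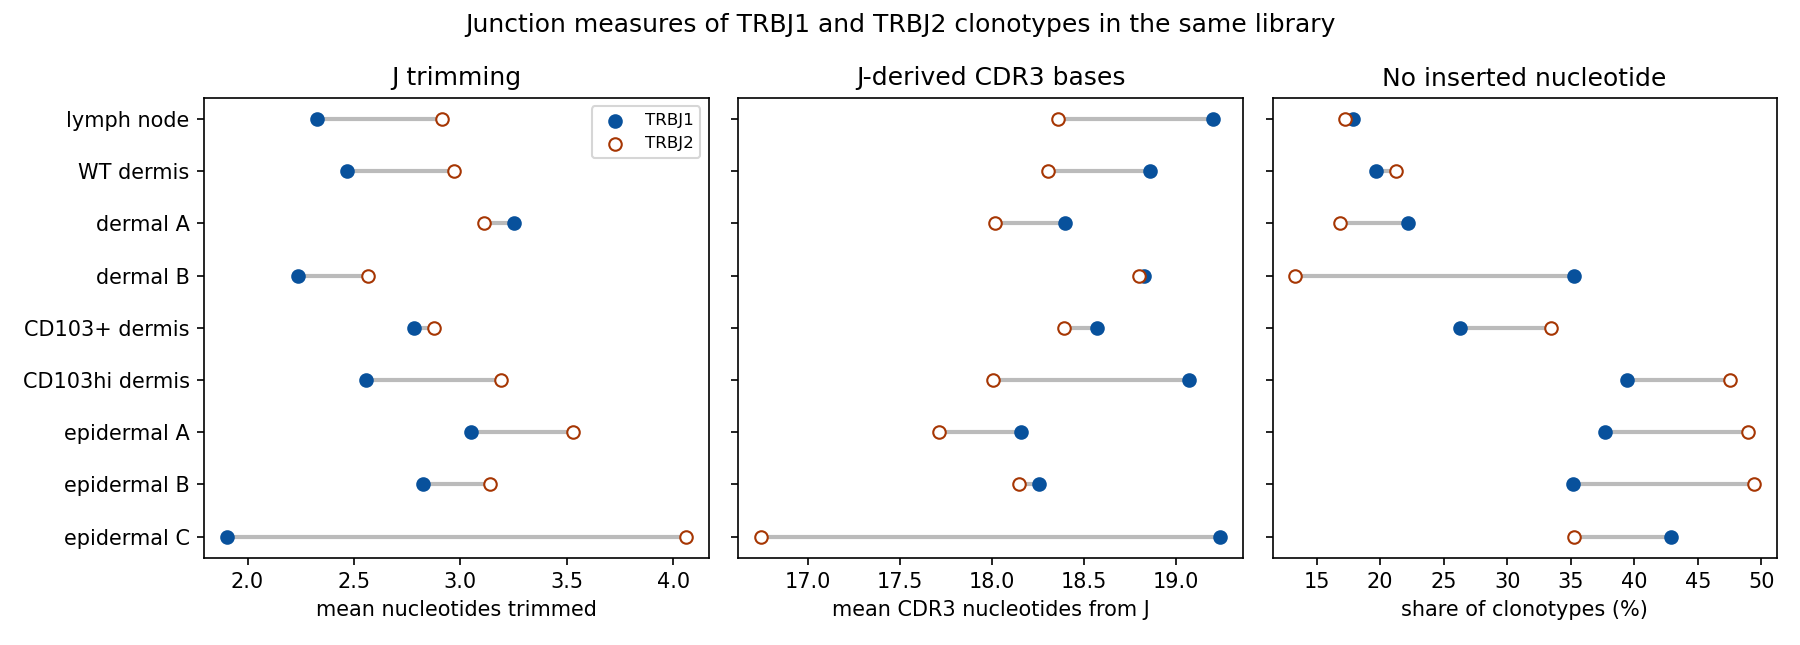
Mean J trimming, mean CDR3 bases assigned to J and share of clonotypes without an inserted base (x axes) for TRBJ1 (filled) and TRBJ2 (open) clonotypes, 1 line a library (y axis). TRBJ1 lies to the left for trimming in 8 of 9 libraries and to the right for J-derived bases in 9 of 9, with the largest gaps in epidermal C (1.90 against 4.06 trimmed bases).

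CDR3 length in lymph node partly tracked the length of the member. TRBJ1-1 clonotypes averaged 13.2 residues (SD 1.35 over clonotypes), TRBJ1-2 13.5 (1.16), TRBJ1-5 13.7 (1.29), TRBJ1-3 14.2 (1.18) and TRBJ1-4 14.2 (1.27). Mean inserted bases were alike in all 5 members, between 2.92 and 3.13. The share of clonotypes without an inserted base ran from 15.8% for TRBJ1-4 to 19.8% for TRBJ1-1. Over all TRBJ1 clonotypes the mean length was 13.6 residues in lymph node, 13.7 in WT dermis, 14.1 in dermal A and 12.9 in dermal B. It was 13.1 in CD103+ and 13.5 in CD103hi dermis, and 13.3, 12.6 and 13.1 in the epidermal libraries. The epidermal mean of 13.0 ± 0.363 (SD, n = 3) and the dermal mean of 13.5 ± 0.858 (SD, n = 2) did not differ beyond their spread (exact permutation p = 0.6; with 3 against 2 libraries the smallest p is 0.2).

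The share of TRBJ1 clonotypes that had no inserted base was higher in the epidermal and CD103hi libraries than in lymph node or WT dermis. This is a description of single libraries. Of the TRBJ1 clonotypes, 17.9% had no inserted base in lymph node, 19.7% in WT dermis, 22.2% in dermal A and 35.3% in dermal B. CD103+ dermis had 26.2% and CD103hi dermis 39.4%, and the epidermal libraries had 37.7, 35.2 and 42.9%. Epidermal and dermal means were 38.6 ± 3.92% (SD, n = 3) and 28.8 ± 9.24% (SD, n = 2), and dermal B, where the share is 6 of 17, overlapped with epidermal B (exact permutation p = 0.4, adjusted p 1.0). The difference of 9.80 points kept its sign but its size moved with the setting. It was 24.7 with at least 2 reads, 39.0 with at least 10, 51.0 weighted by reads and 16.3 without trace clonotypes. It was 4.91 with the germline match, 3.27 without dermal A and 16.3 without dermal B. The gap was 15.4 points in the set of dermal A and epidermal A and 7.56 points in that of dermal B and epidermal C. In TRBJ2 the share was 49.0, 49.4 and 35.3% in epidermal A, B and C against 16.9 and 13.3% in dermal A and B. The TRBJ1 share was below the TRBJ2 share in epidermal A and B. It was above the TRBJ2 share in epidermal C, dermal A and dermal B. The epidermal minus dermal difference in TRBJ1, less that in TRBJ2, was -19.7 points, which did not pass its test (exact permutation p = 0.4, adjusted p 0.6). Mean inserted bases in TRBJ1 were 2.36 ± 0.701 in epidermis and 3.47 ± 2.50 in dermis (exact permutation p = 0.6). Mean J trimming was 2.59 ± 0.607 and 2.74 ± 0.720 (exact permutation p = 0.8), a difference of -0.151 bases, or -0.035 without trace clonotypes.

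Fewer TRBJ1 than TRBJ2 clonotypes had a D segment named. No D was named for 38.9% of TRBJ1 and 26.7% of TRBJ2 clonotypes in lymph node, and the TRBJ1 share was higher in 9 of 9 libraries, by 1.08 to 22.9 percentage points with a median of 12.6. This comparison was chosen after its values were seen and was not tested. TRBD1, the D segment open to TRBJ1 by deletion, is 2 bases shorter than TRBD2.
TRBD1: GGGACAGGGGGC
TRBD2: GGGACTGGGGGGGC
TRBD2 was nevertheless listed for 395 of 8061 TRBJ1 clonotypes in lymph node (4.90%), against 39.0% of TRBJ2 clonotypes. The TRBJ1 value was 9.36% in WT dermis, 4.76% in dermal A, 4.38% in CD103+ and 2.19% in CD103hi dermis. It was 1.30% and 2.20% in epidermal A and B, and 0 of 17 and 0 of 21 clonotypes in dermal B and epidermal C. Where no D was named, all bases between V and J count as inserted, so the insertion measures also move with how often D is recognised.

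TRBJ1 was joined to most V segments, though not evenly. In lymph node its clonotypes used TRBV13-3 most often (12.8%), then TRBV13-1 (10.3%) and TRBV13-2 (9.49%), close to the values in TRBJ2 clonotypes (11.9, 9.76 and 10.4%). In the summed dermal Tcrd-/- libraries TRBV13-3 took 16 of 80 TRBJ1 clonotypes, TRBV1 8.75% and TRBV16 6.25%. In the summed epidermal libraries TRBV13-3 took 31 of 189 (16.4%) and TRBV19 26 of 189 (13.8%). TRBV19 took 5.97% of epidermal TRBJ2 clonotypes. By library, TRBV19 made up 9.09, 16.5 and 19.0% of TRBJ1 clonotypes in epidermal A, B and C, against 4.76 and 5.88% in dermal A and B, 5.10% in lymph node, 8.87% in WT dermis, 5.0% in CD103+ dermis and 1.46% in CD103hi dermis. TRBV13-2 was the third V of epidermal TRBJ1 clonotypes with 18 of 189, while 102 of 636 epidermal TRBJ2 clonotypes used it. Clonotypes of a sum share their library, so these sums carry no test.

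Among the 20 V segments with at least 100 lymph node clonotypes, the share joined to TRBJ1 ran from 18.5 to 36.7%, around the 30.2% of the library. TRBV29 (36.7%, 34.2 to 39.3%) and TRBV19 (36.1%, 33.4 to 39.0%) were highest. TRBV17 (18.5%, 15.0 to 22.6%) and TRBV4 (22.5%, 20.3 to 25.0%) were lowest. The interval lay above the library share for 6 of the 20 and below it for 7.

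**Figure D5:**
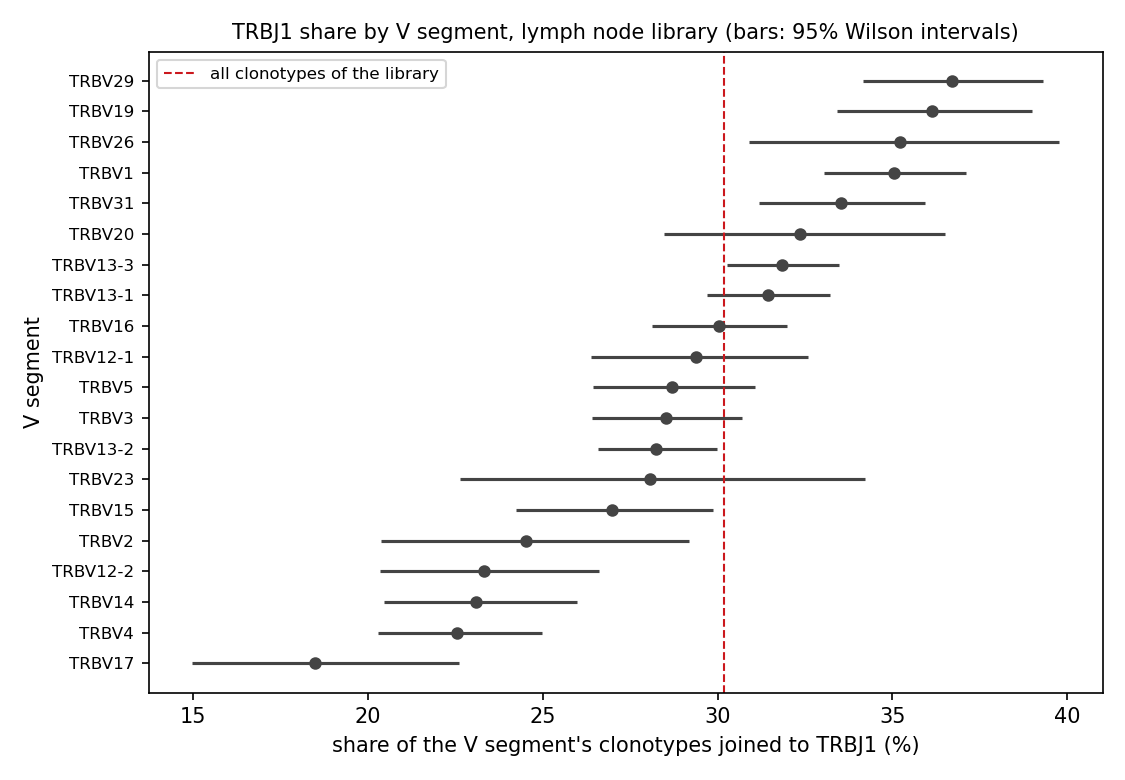
Share of each V segment's lymph node clonotypes that were joined to TRBJ1 (x axis, percent), for the 20 V segments with at least 100 clonotypes (y axis), with 95% Wilson intervals and the share of the whole library (30.2%) as a dashed line. The points run from 18.5% for TRBV17 to 36.7% for TRBV29.

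Pairs of a V segment and a member were compared with the number expected if V and J were drawn independently in that library, taking the 89 pairs with at least 20 expected clonotypes. The ratio of observed to expected ran from 0.317 to 1.69 and was within 0.8 to 1.2 for 45 pairs. For TRBJ1-2, 7 of 19 V segments had an interval above and 7 below the library share. For TRBJ1-1 these were 3 and 6 of 20. They were 4 and 4 of 17 for TRBJ1-3, 3 and 3 of 19 for TRBJ1-4 and 3 and 1 of 14 for TRBJ1-5. Members with more clonotypes have narrower intervals, and the members were not tested against each other. The pairs at the ends, chosen after their values were seen, both involved TRBJ1-2. It was joined to 1.78% (1.12 to 2.84%) of TRBV15 and to 9.51% (7.69 to 11.7%) of TRBV12-1 clonotypes, against 5.63% of the library. TRBJ1-1 went the other way, with 14.7% of TRBV15 and 7.32% of TRBV12-1 clonotypes against 11.2% of the library. TRBV19, the second V of epidermal TRBJ1 clonotypes, was joined to TRBJ1-3 in 7.74% (6.32 to 9.44%) of its lymph node clonotypes, above the 5.01% of the library. It was joined to TRBJ1-4 in 7.30% (5.93 to 8.96%), above the 5.83% of the library. The TRBV19 pairs were also chosen after their values were seen.

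Across the 9 libraries, the V segments whose clonotype share moved most like that of the TRBJ1 cluster, out of 12 found in every library, were TRBV20 (Spearman rho 0.667) and TRBV16 (0.400). These are descriptions over libraries that differ in depth, tissue and set. TRBV19 had the lowest value, -0.617, although it paired with TRBJ1 above the average in lymph node.

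TRBJ1 clonotypes of skin were also found in lymph node at low numbers. Epidermal A shared 15 of its 76 amino acid TRBJ1 clonotypes with lymph node (19.7%), dermal A 10 of 59 (16.9%) and epidermal B 9 of 87 (10.3%). The other skin libraries shared between 1 and 5, or 2.59 to 5.88% of their TRBJ1 clonotypes. Epidermal A and dermal A are of the same library set as lymph node. Of the 10 clonotypes shared with dermal A, 5 had under 1% of the share they had in the other library, as did 3 of the 15 shared with epidermal A.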

How the data were processed

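The deposited tables hold, per the file headers, 1 clonotype per line with a read count, the fraction of the library's reads, and positions of V, D and J in the CDR3. The authors' caller, error correction and build are not given in the sources used here. These choices can move junction positions. The members, lists and tests were chosen with earlier results of these data known. Libraries held 31823 to 189162 reads and 72 to 26693 clonotypes, which sets the Wilson intervals (95%). A count of 0 was given an upper limit of 3 counts.

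Read counts and clonotype counts of all TRBJ segments were compared between epidermal (n = 3) and dermal (n = 2) Tcrd-/- libraries with edgeR 4.0.16 (R 4.3.3; quasi-likelihood test, common dispersion, library totals, at least 10 counts, adjusted p threshold 0.05), checked on simulated data; DESeq2 1.42.0 was an alternative. Means per library over distinct clonotypes were tested by exact permutation, two-sided, over 10 splits (7 measures), TRBJ1 with TRBJ2 by exact sign flips over 9 libraries (5 measures), and the difference between these by permutation (3 measures), each family Benjamini-Hochberg adjusted. Each library is a pool, so a p-value reflects only how far pools vary, which may be technical. J trimming was the germline CDR3 length (GENCODE M21, GRCm38) less the bases from the deposited J start, and inserted bases were those assigned to no segment. The J segments' CDR3 end was the germline position at which most clonotypes stopped.

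Named by rule were all members, the largest TRBJ1 clonotype of each library and of each segment in skin, the 3 most frequent V of TRBJ1 in lymph node, dermis and epidermis, the 2 highest and 2 lowest V by TRBJ1 share in lymph node, and the 2 V most like TRBJ1 across libraries. Alternatives were minimum reads (2 and 10), no trace clonotypes (under 1% of the share in another library of the set), complete CDR3 only, read weighting, the germline match (at least 6 bases), other normalisations, left-out libraries, blocks, and, added after seeing the data, no error neighbours (1 mismatch from a clonotype with 20 times the reads) and no TRBJ1-6. The TRG library was not used here.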

Additional observations from a re-analysis of the deposited data

How the results depend on the processing

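With 3 against 2 libraries the smallest exact p is 0.2, so no epidermal minus dermal mean could pass its test, and the settings show only sizes and directions. The difference in TRBJ1 share of clonotypes (0.323 points) was -1.62 with at least 10 reads, -0.829 without trace clonotypes, -0.782 with complete CDR3 sequences only and -3.08 with the CD103 sorts in the dermal group. The difference in J trimming (-0.151 bases) was 0.293 with at least 2 reads, 0.326 with at least 10 reads, 0.112 weighted by reads and 0.161 from the germline match. The difference in the TRBJ1-1 and TRBJ1-2 share of the cluster (0.0147 points) was -4.69 with at least 2 reads, -11.5 with at least 10, -3.19 without trace clonotypes, -0.0231 with complete CDR3 only, -16.4 weighted by reads and -3.28 with the library set as a block. The epidermal minus dermal difference of TRBJ1 minus TRBJ2 in the share without insertions (-19.7 points) was 9.81 weighted by reads. The cause of these changes was not tested.

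Leaving out 1 library at a time gave -2.04 to 2.69 points for the share of clonotypes, -5.74 to 1.24 for the share of reads, -1.10 to 0.113 residues for CDR3 length, -0.660 to 0.358 bases for trimming, -2.88 to 0.655 for inserted bases and -5.35 to 5.38 points for the TRBJ1-1 and TRBJ1-2 share. For TRBJ1 minus TRBJ2, epidermis minus dermis, CDR3 length ran from -0.215 to 1.11 residues.

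Over the 9 libraries, TRBJ1 minus TRBJ2 trimming kept its sign but missed the threshold with at least 10 reads (-0.796 bases, adjusted permutation p 0.0586), and from the germline match (-0.352). With 1 library left out it ran from -0.638 to -0.350 and missed the threshold in 7 of 9 fits, lymph node (-0.546) among them. J-derived bases missed it with at least 10 reads (1.06) and from the germline match (0.588). Inserted bases (0.268) turned to -0.0683 with at least 2 reads and -0.190 with at least 10. The share without insertions (-0.762 points) was -0.029 without trace clonotypes, turned to 0.583 with at least 10 reads and 0.0837 weighted by reads, and ran from -3.60 to 0.924 with 1 library left out.

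By clonotypes, 0 TRBJ segments were called, against 1 with TMM factors, 1 with the newer edgeR fit, 1 with at least 10 reads (TRBJ2-3), 2 without trace clonotypes, 1 with the CD103 sorts added and 0 to 2 with 1 library left out (2 without epidermal C, both TRBJ2). By reads, 0 to 1 were called with 1 library left out. Log2 fold changes of members by clonotypes turned to -0.18 (TRBJ1-1, at least 10 reads), 0.0072 (TRBJ1-2, library set as a block) and -0.060 (TRBJ1-5, complete CDR3 only), and with the CD103 sorts to -0.020 (TRBJ1-1), -0.10 (TRBJ1-3) and -0.72 (TRBJ1-5). With 1 library left out TRBJ1-1 ran from -0.017 to 0.89 and TRBJ1-5 from -0.33 to 0.34. TRBJ1-4 was below 0 in all 18 fits by clonotypes, from -2.54 to -0.85. Where dermis was left with 1 library, that library was taken to vary like the others.

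Epidermal and dermal libraries share replicate letters A and B, but the B libraries are of different sets, so the letters name libraries and do not pair them. With the replicate block, the difference in TRBJ1 share of clonotypes was -1.88 points and in trimming 0.193 bases, and 0 segments were called by clonotypes or by reads. Of the other results, 220 values for the comparisons and 71 for single segments kept their direction and their side of the threshold, a side that the design fixed for the epidermal minus dermal means. Skin shares of single members rest on 1 to 69 clonotypes, which limits every contrast between tissues.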
